A study of Mus musculus with 22 samples.

Results

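The genes described here code for the enzymes of the tricarboxylic acid (TCA) cycle, of pyruvate entry into it and of mitochondrial fatty acid oxidation, measured in mouse aorta. The 35 members were chosen by gene name: 18 TCA cycle and pyruvate genes and 17 beta-oxidation genes, of 18194 genes with a probe set of their own on the array. All 35 were measured and passed the filter on low values, which asked for a log2 signal over 4 on at least 3 of the 22 arrays. The mice were female C57BL/6, 2.5 to 4.5 months old, and all were ovariectomised, so that every group lacked its main source of ovarian estrogen. Each mouse then carried a pellet of 17beta-estradiol (E2) or a placebo pellet for 7 to 8 days. Wild-type (WT) littermates made up 5 placebo and 5 E2 mice. The knockouts were ERaKO, without estrogen receptor alpha, and ERbKO, without estrogen receptor beta, at 3 placebo and 3 E2 mice each. Every array held the RNA of a single aorta (5 ug, never pooled), so precision is set by these small array numbers. The RNA comes from all cell types of the vessel and of any tissue left on it.

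The TCA cycle is the ring of mitochondrial reactions that oxidises acetyl-CoA and hands its electrons to the respiratory chain. Pyruvate enters it as acetyl-CoA through the pyruvate dehydrogenase complex, or as oxaloacetate through pyruvate carboxylase. Fatty acids enter mitochondria on carnitine and are cut into acetyl-CoA by the repeated steps of beta-oxidation, whose electrons pass through the electron transfer flavoproteins. Both pathways are densely expressed in brown adipocytes, heart and oxidative muscle. In the mouse the thoracic aorta is wrapped in perivascular fat with brown adipocyte character, while the wall itself is mostly smooth muscle.

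All values are log2 signals that the authors computed with GCRMA, which subtracts background by probe sequence and puts the arrays on a common scale before summarising each probe set. Levels of different probe sets cannot be compared, so each gene is compared only with itself. The median tested probe set lay between 6.35 and 6.80 on the 22 arrays, and arrays of the same group correlated with r of 0.905 to 0.984. Esr1, which codes for estrogen receptor alpha, lay between 8.04 and 9.17 in all WT and ERbKO arrays and between 3.48 and 5.50 in all ERaKO arrays. Esr2, which codes for estrogen receptor beta, lay between 2.34 and 2.72 in every group and did not pass the filter, so it could not check the ERbKO label. Myh11, the smooth muscle myosin heavy chain, lay between 12.19 and 13.77 on all arrays. Ucp1, the uncoupling protein that defines brown adipocytes, was also present on every array, between 11.35 and 14.07. WT placebo replicate 1 stood apart in muscle genes: Acta1, the skeletal muscle actin, was 10.09 there and between 3.49 and 6.67 on the other arrays.

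Because Acads and Eci1 gave the smallest adjusted p-values of the WT comparison with replicate pairs, and because Acadm and Etfdh each held a searched motif, their promoters are printed. Each is the stretch of 250 bases before the annotated start, 5′ to 3′ on the gene's strand, from RefSeq, build GRCm38.p6; capitals mark the motif.
Acads (chr5:115119347-115119596, minus strand): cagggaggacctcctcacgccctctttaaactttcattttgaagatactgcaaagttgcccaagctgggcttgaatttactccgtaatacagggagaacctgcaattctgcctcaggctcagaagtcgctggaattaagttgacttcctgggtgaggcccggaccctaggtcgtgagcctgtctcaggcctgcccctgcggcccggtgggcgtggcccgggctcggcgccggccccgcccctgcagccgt
Eci1 (chr17:24426433-24426682, plus strand): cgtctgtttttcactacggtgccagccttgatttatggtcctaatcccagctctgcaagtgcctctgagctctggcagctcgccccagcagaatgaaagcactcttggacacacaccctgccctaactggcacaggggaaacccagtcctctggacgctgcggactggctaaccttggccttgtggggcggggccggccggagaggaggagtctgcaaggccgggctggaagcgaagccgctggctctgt
Acadm (chr3:153944644-153944893, minus strand): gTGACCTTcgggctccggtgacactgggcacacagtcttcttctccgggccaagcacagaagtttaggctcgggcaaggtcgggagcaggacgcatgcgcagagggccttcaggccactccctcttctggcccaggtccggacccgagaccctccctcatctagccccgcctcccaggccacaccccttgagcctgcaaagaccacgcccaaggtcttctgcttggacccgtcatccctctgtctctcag
Etfdh (chr3:79628768-79629017, minus strand): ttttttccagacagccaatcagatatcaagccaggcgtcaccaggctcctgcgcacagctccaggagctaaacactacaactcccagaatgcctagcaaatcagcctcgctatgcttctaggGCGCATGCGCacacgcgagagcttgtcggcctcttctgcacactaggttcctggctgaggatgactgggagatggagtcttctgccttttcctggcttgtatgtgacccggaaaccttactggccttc
Promoters were found for 31 of the 35 members, and none for Idh3a, Acaa2, Acat1 and Decr1 was used. Both strands were searched for 4 motifs. AAGGTCA, a half-site bound by estrogen-related receptors, was present in 1 of the 31 genes, Acadm, and in 4.08% of the 32851 promoter stretches searched. In Acadm it reads on the other strand and begins 249 bases before the start. The palindromic estrogen response element, GGTCA and TGACC with 3 bases between them, was in none of the members' stretches and in 0.0639% of all. Its first 5 letters are also the last 5 of the half-site. The site of nuclear respiratory factor 1, GCGCA followed directly by its reverse complement TGCGC, was in 1 member gene, Etfdh, 128 bases before the start, and in 0.782% of all stretches. CCGGAAG, an ETS factor site, was in 3 member genes, Cpt2, Idh3g and Slc25a20, and in 6.91% of all stretches. Counts for the members are of genes, whose stretches numbered 37, while the percentages are of stretches. These matches are letters in a window only.

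The first comparison asked how E2 changed these genes in WT aorta. The mean E2 minus placebo difference was below 0 for all 35 members in WT, where 47.8% of the 20410 tested probe sets were below 0. The median difference was -0.63 on the log2 scale for the TCA cycle members and -0.67 for the beta-oxidation members, against 0.01 for all tested probe sets. The largest differences in WT were those of Eci1 (-1.01 ± 0.38, SE), Acads (-1.003 ± 0.36) and Pcx (-0.94 ± 0.45), and the smallest was that of Suclg2 (-0.06 ± 0.17). These ranks, and those that follow, are for 1 probe set per gene; over its 3 tested probe sets Idh3a ranged from -1.16 to -0.62 in WT. In a limma fit of the 6 group means over all 22 arrays, with Benjamini-Hochberg adjustment over the tested probe sets, 0 of 35 members had an adjusted p under 0.05, where 0.0392% of all tested probe sets were called lower. At an unadjusted p under 0.05, 11 of 35 members were lower, against 3.42% of all tested probe sets.

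Placebo and E2 arrays with the same replicate number within a genotype deviated together from their group means. Each E2 comparison was therefore repeated with that number, within its genotype, as a block. With that block 5 of 35 members fell with E2 in WT, and 0.725% of all tested probe sets were called lower. They were Acads (limma adjusted p = 0.00882), Eci1 (0.0106), Idh2 (0.0196), Acadl (0.0408) and Dlst (0.0489). When each of the 11 pairs of arrays was left out in turn, the blocked WT count ranged from 2, without WT pair 2 or WT pair 4, to 20, without WT pair 5. Acads kept its call in 11 of 11 such fits, Eci1 in 10, Idh2 in 9, Acadl in 3 and Dlst in 1. In 19 of 35 members the E2 array was the lower one in all 5 WT pairs, which held for 5.93% of all tested probe sets.

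The same comparison in the knockouts asked whether the difference needs either receptor. In ERaKO aortas 34 of 35 members had a difference below 0, where 48.3% of all tested probe sets did. The medians were -0.97 for the TCA cycle members and -1.20 for the beta-oxidation members, against 0.01 for all tested probe sets. None of the 35 was called without the block, where 0% of all tested probe sets were called lower, and 25 were lower at an unadjusted p under 0.05, against 5.21%. With the replicate block 20 of 35 fell, against 1.57% of all tested probe sets. This count was 0 without any 1 of the 3 ERaKO pairs, 1 to 3 without WT pair 2, WT pair 3 or an ERbKO pair, 5 without WT pair 1, 26 without WT pair 5 and 28 without WT pair 4. It was also 0 when each array was centred on its median in the blocked fit. The arrays of the groups did not overlap, with E2 below placebo, for 32 of the 35 members, which held for 9.3% of all tested probe sets. The exceptions were Mdh1, Mdh2 and Hadhb.

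In ERbKO aortas all 35 members had a mean difference below 0, where 55.7% of all tested probe sets did. The medians were -0.26 for the TCA cycle members and -0.25 for the beta-oxidation members, against -0.02 for all tested probe sets. None was called with or without the block, where 0.0196% and 0.0049% of all tested probe sets were called lower, and 0 of 35 reached an unadjusted p under 0.05 without the block, against 1.22%. With the block 2 of 35 did, Pcx and Suclg1, against 3.1% of all tested probe sets. The groups overlapped for all 35 members, while 5.16% of all tested probe sets had every E2 array below every placebo array. Leaving out single arrays without the block could turn the signs. Without ERbKO placebo replicate 1 the medians were 0.05 and 0.08, and 27 of 35 differences were above 0. Without ERbKO E2 replicate 2, 20 of 35 were above 0. In the blocked fit 34, 35 and 35 of 35 were below 0 without ERbKO pairs 1, 2 and 3. The medians then lay between -0.28 and -0.20 for the TCA cycle and between -0.32 and -0.21 for beta-oxidation. That fit treats arrays of equal number as pairs, which the labels do not state. Within pairs of equal number the E2 array was lower in all 3 ERbKO pairs for 28 members, which held for 20% of all tested probe sets; in ERaKO this was so for 34 members, against 18.9%.

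**Figure D1:**
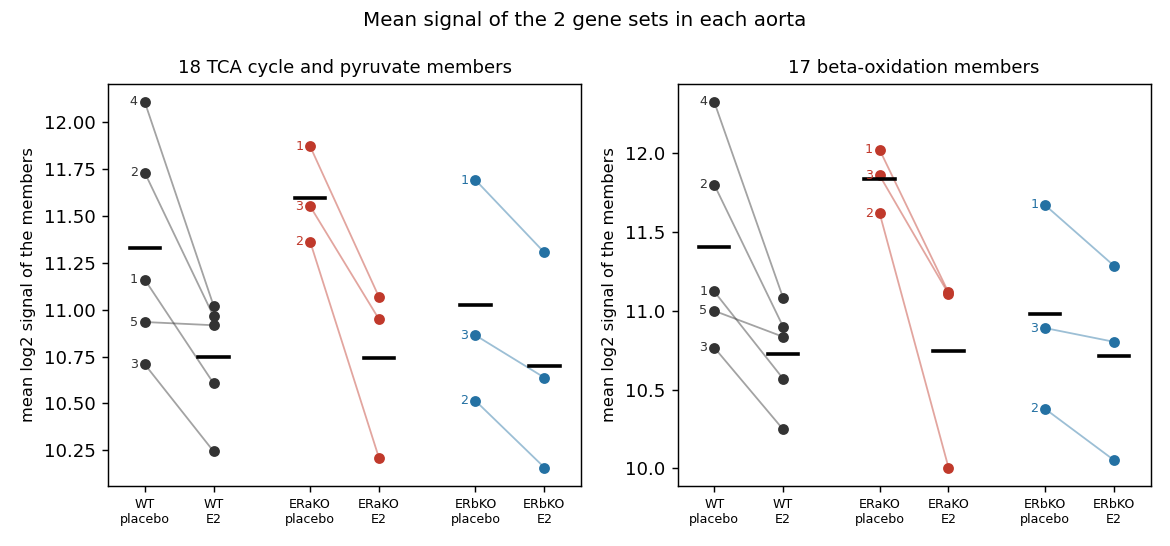
Mean log2 signal of the 18 TCA cycle and pyruvate members (left) and the 17 beta-oxidation members (right) in each aorta. Points are arrays, digits are replicate numbers, lines join placebo and E2 arrays of equal number within a genotype, and black bars are group means. In the left panel WT placebo replicate 4 is the highest array at 12.11, and both ERaKO means and ERbKO means are lower with E2 than with placebo.

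The mean over the 18 TCA cycle members was 11.16, 11.73, 10.71, 12.11 and 10.93 in the WT placebo arrays and 10.61, 10.96, 10.24, 11.02 and 10.92 in the WT E2 arrays, in replicate order. In ERaKO these means were 11.87, 11.36 and 11.55 with placebo and 11.07, 10.21 and 10.95 with E2. In ERbKO they were 11.69, 10.51 and 10.86 with placebo and 11.30, 10.16 and 10.64 with E2. The E2 array was the lower one in every pair, by 0.02 in WT pair 5 and by 1.15 in ERaKO pair 2 at the extremes. WT E2 arrays lay close to the 3 lower WT placebo arrays, while WT placebo replicates 2 and 4 stood above every E2 array of any genotype.

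The mean over the 17 beta-oxidation members was 11.12, 11.80, 10.77, 12.32 and 10.999 in WT with placebo and 10.57, 10.90, 10.25, 11.08 and 10.83 with E2. In ERaKO it was 12.02, 11.62 and 11.86 with placebo and 11.12, 10.01 and 11.11 with E2, and the groups did not overlap. In ERbKO it was 11.67, 10.38 and 10.89 with placebo and 11.29, 10.05 and 10.80 with E2. Pair differences ran from -0.09 in ERbKO pair 3 to -1.61 in ERaKO pair 2. Without WT placebo replicate 4 the WT medians were -0.40 for the TCA cycle members and -0.44 for the beta-oxidation members. Without ERaKO E2 replicate 2 the ERaKO medians were -0.66 and -0.78. These are bulk samples, in which fewer cells of a type and less RNA per cell cannot be told apart.

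**Figure D2:**
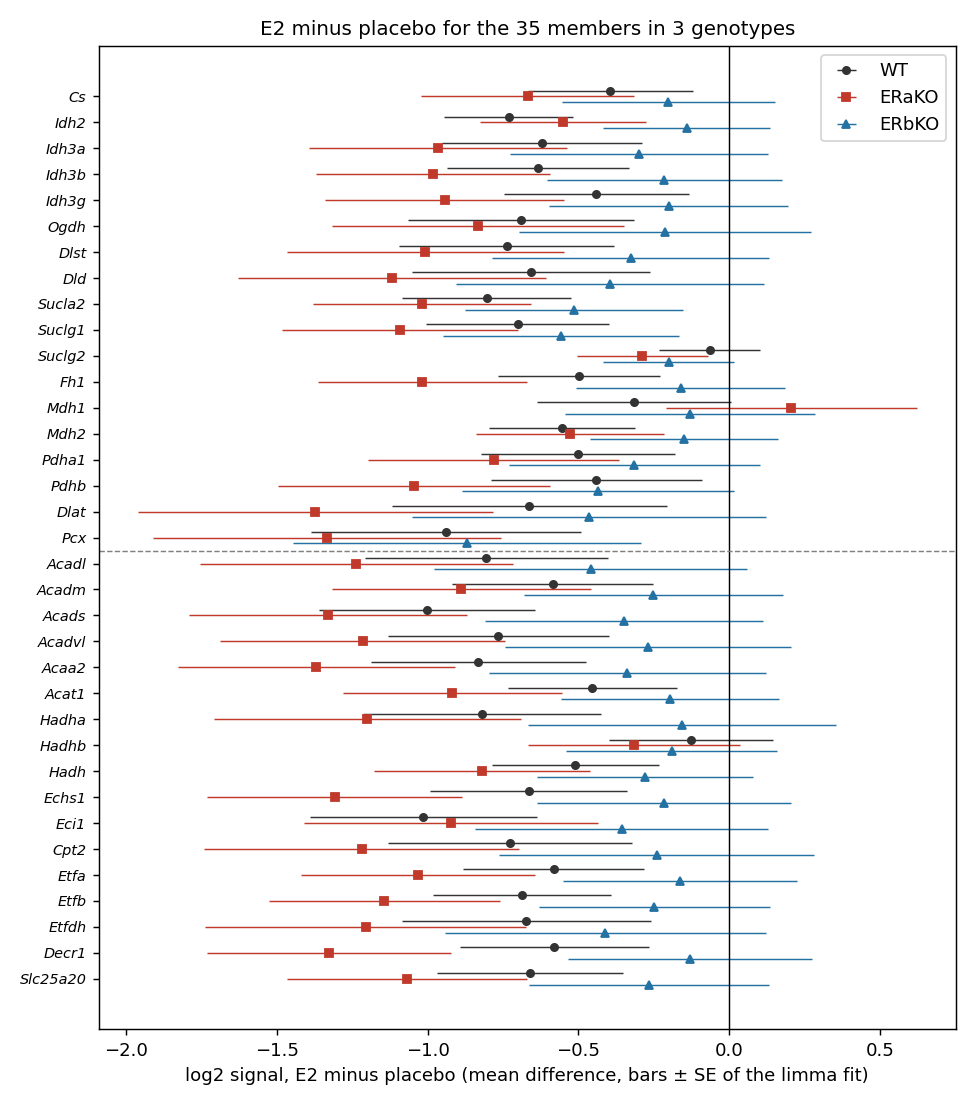
Mean E2 minus placebo difference in log2 signal for each of the 35 members in WT (circles), ERaKO (squares) and ERbKO (triangles), with bars of ± 1 SE from the limma fit and a dashed line between the TCA cycle and the beta-oxidation members. All WT and ERbKO points lie below 0; in ERaKO the exception is Mdh1 at 0.21.

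The next test asked whether the E2 effect in each knockout differed from that in WT, and no member passed it. For ERaKO minus WT, 0 of 35 differences of E2 effects were called, where 0.0637% of all tested probe sets were called lower and 0.0049% higher, and 0 were under an unadjusted p of 0.05, against 1.95% lower and 1.17% higher. The median of these differences was -0.39 over the 35 members, with the largest for Decr1 at -0.75 ± 0.51 (SE). For ERbKO minus WT, 0 of 35 were called, as were 0% of all tested probe sets in either direction, and 0 were under an unadjusted p of 0.05, against 0.71% lower and 0.568% higher. The median was 0.34, with the largest for Hadha, Eci1 and Acads at 0.66. With the block the counts of calls were 0 in both, where 0.127% of all tested probe sets were lower and 0.0147% higher for ERaKO minus WT and 0% either way for ERbKO minus WT. At an unadjusted p under 0.05 in the blocked fit 3 members were lower and 0 higher for ERaKO minus WT, against 4.65% and 2.54% of all tested probe sets. For ERbKO minus WT 0 were lower and 3 higher, against 2.35% and 2.55%. An effect that was called in WT and not in ERbKO is therefore not shown to differ between them. The E2 effects in ERaKO and ERbKO were not tested against each other.

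The knockouts were also compared with WT under the same pellet. With placebo, ERaKO was above WT for 33 of 35 members, with a median of 0.37, but the median of all tested probe sets was also above 0, at 0.12, and 69.6% of them were higher. None of the members was called higher or lower, as were 0% and 0.0049% of all tested probe sets. The difference with the smallest unadjusted p was that of Mdh1 at -0.95 ± 0.37 (SE; limma adjusted p = 0.96). It was -0.24 without ERaKO placebo replicate 2, and the 3 other tested Mdh1 probe sets gave 0.03, 0.19 and 0.15. With placebo, ERbKO was below WT for 33 of 35 members, with a median of -0.39, against -0.01 for all tested probe sets, of which 52.2% were lower. None was called, as were 0% higher and 0.0049% lower of all tested probe sets. With E2 the medians were 0.01 for ERaKO minus WT and -0.03 for ERbKO minus WT. By the probe sets used, ERaKO minus WT ran from -0.53 for Hadhb to 0.51 for Idh2, so members went both ways. Of the 35 members 0 were called in either comparison. Of all tested probe sets 0.0588% and 0% were called higher and 0.181% and 0.0049% lower. Medians near 0 and a lack of calls do not show equal levels.

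**Figure D3:**
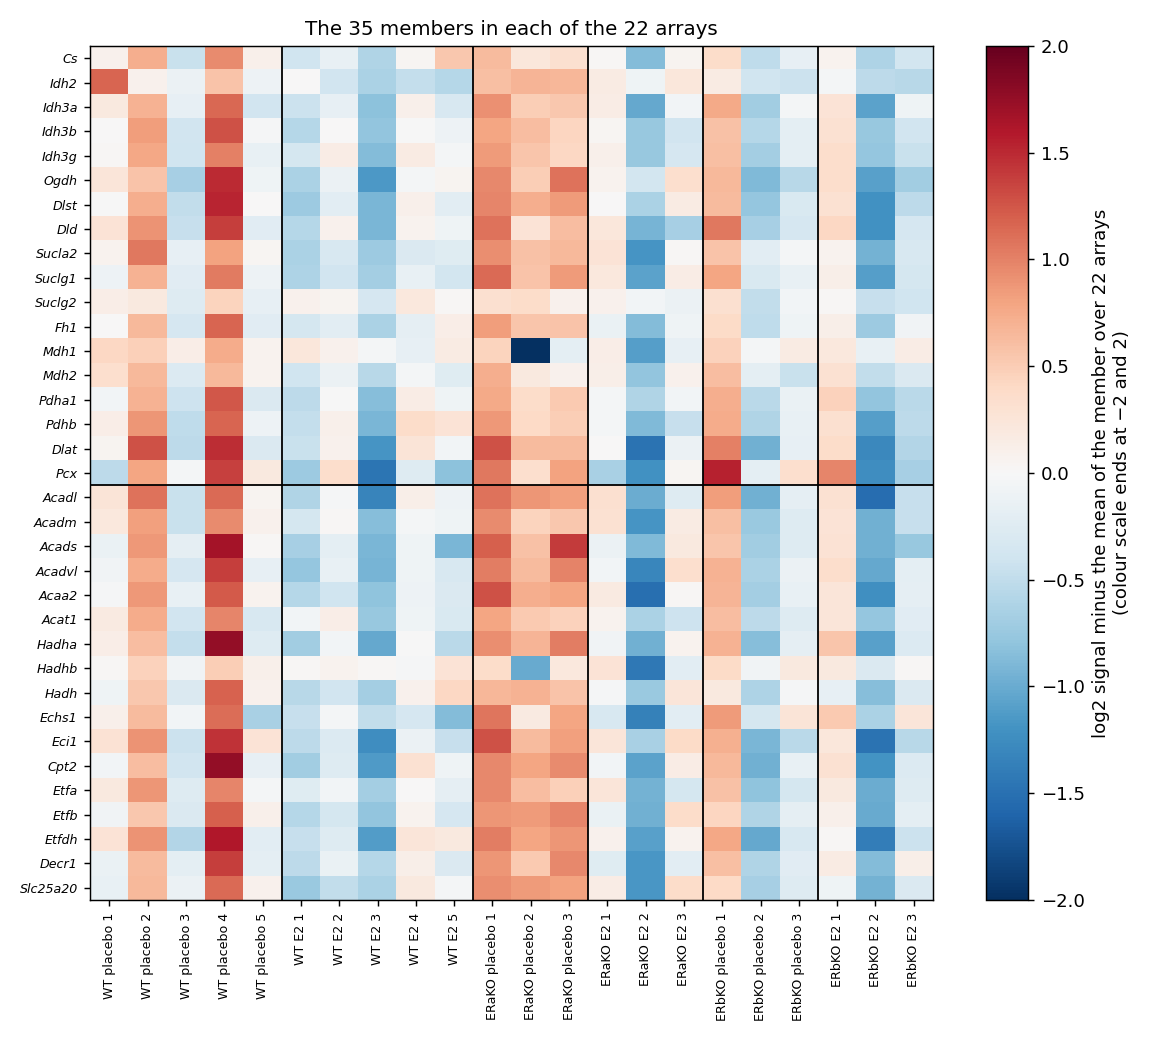
Log2 signal of each member (rows, TCA cycle above the line and beta-oxidation below it) in each of the 22 arrays (columns, by group), minus the mean of that member over all arrays; red is above and blue below, and the colour scale ends at −2 and 2. Columns are nearly uniform in colour, with WT placebo 4 and ERaKO placebo 1 high and ERaKO E2 2, ERbKO E2 2 and WT E2 3 low; Mdh1 and Hadhb are low in ERaKO placebo 2, against their column.

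The members are described next in the order of their steps, starting with pyruvate. In the lists of values that follow, replicates stand in order from 1, with 5 values for WT and 3 for each knockout, and a value after ± is an SE of the limma fit for a difference and an SD between arrays for a group mean. Pcx, pyruvate carboxylase, makes oxaloacetate from pyruvate and so refills the cycle. With placebo Pcx measured 7.5002, 8.81, 7.99, 9.40 and 8.22 in WT, 9.08, 8.36 and 8.82 in ERaKO and 9.56, 7.83 and 8.36 in ERbKO. With E2 it measured 7.30, 8.38, 6.57, 7.77 and 7.20 in WT, 7.38, 6.81 and 8.07 in ERaKO and 9.002, 6.78 and 7.36 in ERbKO. ERbKO placebo replicate 1 was the highest array and WT E2 replicate 3 the lowest, E2 was lower in all 11 pairs, and only the ERaKO groups did not overlap. The difference was -0.94 ± 0.45 in WT, -1.34 ± 0.58 in ERaKO and -0.87 ± 0.58 in ERbKO, the largest ERbKO difference among the members. In the blocked limma fit Pcx fell in ERaKO (adjusted p = 0.0414) and missed the threshold in WT (0.0505) and in ERbKO (0.49). A control probe set for the 3′ end of the same transcript differed by -0.84 in WT, -1.44 in ERaKO and -0.85 in ERbKO. A control probe set for its middle differed by -0.68, -1.63 and -0.51. The 5′ and the other middle control probe set, both near the floor, differed by -0.19 and -0.17 in WT. They differed by -0.55 and -0.77 in ERaKO and by -0.45 and -0.35 in ERbKO.

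Pdha1 codes for the alpha subunit of the first enzyme of the pyruvate dehydrogenase complex. Pdha1 signal with placebo was 11.13, 11.87, 10.77, 12.43 and 10.89 in WT, 11.94, 11.55 and 11.71 in ERaKO and 11.91, 10.65 and 11.05 in ERbKO. Under E2 the values were 10.66, 11.17, 10.33, 11.33 and 11.10 in WT, 11.14, 10.58 and 11.13 in ERaKO and 11.64, 10.39 and 10.64 in ERbKO. WT E2 replicate 4, at 11.33, lay above 3 of the 5 WT placebo arrays, and ERaKO arrays did not overlap. Differences were -0.5004 ± 0.32 in WT, -0.78 ± 0.42 in ERaKO and -0.31 ± 0.42 in ERbKO, with blocked adjusted p-values of 0.13 in WT and 0.0784 in ERaKO. Pdhb codes for the beta subunit of that enzyme. Its group means in WT were 12.30 ± 0.69 with placebo and 11.86 ± 0.55 with E2, in ERaKO 12.58 ± 0.25 with placebo and 11.53 ± 0.42 with E2 and in ERbKO 11.99 ± 0.68 with placebo and 11.56 ± 0.72 with E2. Pdhb fell by 1.05 in ERaKO with the block (adjusted p = 0.0375). Dlat codes for the acetyltransferase core of the complex. Its means were 9.88 ± 0.92 with placebo and 9.22 ± 0.57 with E2 in WT, 10.33 ± 0.37 with placebo and 8.96 ± 0.83 with E2 in ERaKO and 9.45 ± 0.99 with placebo and 8.98 ± 0.84 with E2 in ERbKO. By the probe sets used, Dlat and Acaa2 had the largest ERaKO differences of the 35, -1.37 ± 0.59 for Dlat, which fell there with the block (adjusted p = 0.0414). Dld codes for the dihydrolipoamide dehydrogenase that the pyruvate and 2-oxoglutarate complexes share. Its means were 10.998 ± 0.77 with placebo and 10.34 ± 0.44 with E2 in WT, 11.28 ± 0.41 with placebo and 10.16 ± 0.61 with E2 in ERaKO and 10.64 ± 0.91 with placebo and 10.24 ± 0.82 with E2 in ERbKO, and it fell in ERaKO with the block (adjusted p = 0.0423).

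Cs, citrate synthase, joins acetyl-CoA to oxaloacetate in the step that opens the cycle. Cs measured 12.51, 13.16, 11.98, 13.37 and 12.52 in WT, 13.06, 12.66 and 12.75 in ERaKO and 12.79, 11.92 and 12.26 in ERbKO with placebo. With E2 it measured 12.03, 12.28, 11.82, 12.47 and 12.97 in WT, 12.44, 11.55 and 12.47 in ERaKO and 12.49, 11.80 and 12.06 in ERbKO. WT E2 replicate 5, at 12.97, was above 3 of the 5 WT placebo arrays, its own partner among them. The difference of -0.39 ± 0.27 in WT and that of -0.67 ± 0.35 in ERaKO, with non-overlapping arrays there, were the smallest over 3 tested Cs probe sets, which reached -0.79 in WT and -1.24 in ERaKO. For the probe set used neither was called with the block (adjusted p = 0.32 and 0.21), and ERbKO gave -0.20 ± 0.35.

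Idh2 codes for the mitochondrial NADP-dependent isocitrate dehydrogenase, which stands beside the cycle rather than in its NAD-dependent main path. Idh2 read 9.55, 8.48, 8.28, 8.96 and 8.29 in WT, 9.001, 9.07 and 9.06 in ERaKO and 8.55, 7.99 and 7.96 in ERbKO with placebo. Its E2 arrays read 8.40, 8.002, 7.76, 7.91 and 7.82 in WT, 8.55, 8.30 and 8.62 in ERaKO and 8.36, 7.88 and 7.84 in ERbKO. WT placebo replicate 1, the array highest in muscle transcripts, was the highest of all 22 for Idh2, unlike for most members. The WT groups overlapped only through WT E2 replicate 1. The WT difference was -0.73 ± 0.21, with the smallest unadjusted p of all members (0.0029; limma adjusted p = 0.25). It was -0.52 without WT placebo replicate 1. The ERaKO difference was -0.55 ± 0.28 and the ERbKO difference -0.14 ± 0.28; Idh2 was the member whose deviations followed the other members least, with a median r of 0.39.

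Idh3a, Idh3b and Idh3g code for the 3 subunits of the NAD-dependent isocitrate dehydrogenase, a rate-setting step. Idh3a means were 12.11 ± 0.63 with placebo and 11.49 ± 0.34 with E2 in WT, 12.47 ± 0.24 with placebo and 11.502 ± 0.63 with E2 in ERaKO and 11.82 ± 0.73 with placebo and 11.52 ± 0.69 with E2 in ERbKO. Idh3b means were 12.08 ± 0.68 with placebo and 11.44 ± 0.37 with E2 in WT, 12.35 ± 0.18 with placebo and 11.36 ± 0.40 with E2 in ERaKO and 11.67 ± 0.59 with placebo and 11.46 ± 0.54 with E2 in ERbKO. Idh3g means were 11.99 ± 0.61 with placebo and 11.55 ± 0.43 with E2 in WT, 12.34 ± 0.22 with placebo and 11.40 ± 0.43 with E2 in ERaKO and 11.65 ± 0.64 with placebo and 11.45 ± 0.58 with E2 in ERbKO. The ERaKO differences of the 3 subunits were close, -0.97 ± 0.43, -0.98 ± 0.39 and -0.94 ± 0.40, and all 3 had arrays that did not overlap. Idh3b and Idh3g fell there with the block (limma adjusted p = 0.042 and 0.0348), and Idh3a missed the threshold at 0.0542.

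Ogdh codes for the 2-oxoglutarate dehydrogenase component that gives the next complex its name. Ogdh values with placebo were 10.92, 11.26, 10.02, 12.17 and 10.60 in WT, 11.64, 11.17 and 11.77 in ERaKO and 11.33, 9.81 and 10.13 in ERbKO. With E2 they were 10.04, 10.57, 9.53, 10.64 and 10.73 in WT, 10.75, 10.31 and 11.02 in ERaKO and 11.04, 9.59 and 9.99 in ERbKO. WT placebo replicate 4, at 12.17, was the highest array and WT E2 replicate 3 the lowest, and in WT pair 5 the E2 array was the higher one. The differences were -0.69 ± 0.38, -0.83 ± 0.48 and -0.21 ± 0.48 in WT, ERaKO and ERbKO, and none was called with the block (adjusted p = 0.0808 and 0.0979 in the first 2). Dlst codes for the succinyltransferase core of the same complex. Dlst measured 10.15, 10.90, 9.67, 11.69 and 10.17 in WT, 11.15, 10.89 and 11.01 in ERaKO and 10.80, 9.38 and 9.86 in ERbKO with placebo. With E2 Dlst measured 9.44, 9.96, 9.25, 10.27 and 9.95 in WT, 10.18, 9.53 and 10.32 in ERaKO and 10.47, 8.95 and 9.64 in ERbKO. E2 was lower in all 11 pairs, and the WT groups overlapped. With the block Dlst fell by 0.74 in WT (adjusted p = 0.0489) and fell by 1.01 in ERaKO (0.042). The WT difference was -0.45 without WT placebo replicate 4, and over 3 tested Dlst probe sets the ERaKO difference ranged from -1.01 to -0.32.

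Sucla2 and Suclg2 code for the ATP-specific and the GTP-specific beta subunit of succinyl-CoA ligase, and Suclg1 for the alpha subunit they share. Sucla2 measured 12.34, 13.32, 12.10, 13.07 and 12.30 in WT, 13.20, 12.86 and 12.91 in ERaKO and 12.84, 12.06 and 12.23 in ERbKO with placebo. With E2 it measured 11.64, 11.95, 11.54, 11.97 and 12.02 in WT, 12.55, 11.09 and 12.28 in ERaKO and 12.33, 11.31 and 11.94 in ERbKO. Sucla2 was the 1 member whose WT arrays did not overlap, with the highest E2 value, 12.02, below the lowest placebo value, 12.10; this held for 0.333% of all tested probe sets. Its differences were -0.80 ± 0.28 in WT, -1.02 ± 0.36 in ERaKO and -0.51 ± 0.36 in ERbKO, with blocked adjusted p-values of 0.0597, 0.063 and 0.88. Suclg1 read 11.27, 12.06, 11.15, 12.41 and 11.27 in WT, 12.51, 11.94 and 12.22 in ERaKO and 12.15, 11.06 and 11.23 in ERbKO with placebo. Under E2 Suclg1 read 10.75, 10.98, 10.69, 11.22 and 11.004 in WT, 11.57, 10.30 and 11.51 in ERaKO and 11.49, 10.27 and 11.01 in ERbKO. Suclg1 was highest in ERaKO placebo replicate 1 and lowest in ERbKO E2 replicate 2, and E2 was lower in all 11 pairs. It differed by -0.70 ± 0.30 in WT, -1.09 ± 0.39 in ERaKO and -0.56 ± 0.39 in ERbKO, and fell in ERaKO with the block (adjusted p = 0.0414). Suclg2 means were 10.45 ± 0.29 with placebo and 10.38 ± 0.20 with E2 in WT, 10.63 ± 0.15 with placebo and 10.35 ± 0.10 with E2 in ERaKO and 10.30 ± 0.41 with placebo and 10.10 ± 0.27 with E2 in ERbKO. The Suclg2 differences, -0.06 ± 0.17, -0.29 ± 0.22 and -0.20 ± 0.22, included some of the smallest of the module in WT and ERaKO, and its WT difference changed sign without WT placebo replicate 4 (0.030) or without WT E2 replicate 3 (0.022).

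Sdha, Sdhb, Sdhc and Sdhd, the subunits of succinate dehydrogenase, follow in the cycle and are not members; with the block Sdha and Sdhb fell in ERaKO by 1.11 and 1.10 (limma adjusted p = 0.0333 and 0.0315). Fh1 codes for fumarase, which makes malate. Fh1 measured 10.57, 11.22, 10.24, 11.73 and 10.34 in WT, 11.40, 11.13 and 11.14 in ERaKO and 10.96, 10.06 and 10.49 in ERbKO with placebo. With E2 Fh1 measured 10.22, 10.36, 9.93, 10.39 and 10.70 in WT, 10.43, 9.71 and 10.48 in ERaKO and 10.68, 9.84 and 10.504 in ERbKO. ERaKO arrays separated, from 11.13 upward with placebo and up to 10.48 with E2, while WT arrays overlapped. The ERaKO difference, -1.02 ± 0.35, had the smallest unadjusted p of the TCA cycle members there (0.0084), with a limma adjusted p of 0.65, or 0.0772 with the block. The WT and ERbKO differences were -0.499 ± 0.27 and -0.16 ± 0.35.

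Mdh2 codes for the mitochondrial malate dehydrogenase that closes the cycle, and Mdh1 for its cytosolic partner in the malate-aspartate shuttle. Mdh2 means were 12.81 ± 0.39 with placebo and 12.25 ± 0.21 with E2 in WT, 12.86 ± 0.34 with placebo and 12.33 ± 0.51 with E2 in ERaKO and 12.51 ± 0.55 with placebo and 12.36 ± 0.41 with E2 in ERbKO. The Mdh2 difference was -0.55 ± 0.24 in WT and -0.53 ± 0.31 in ERaKO, where it was -0.23 without ERaKO E2 replicate 2. The second tested Mdh2 probe set gave -0.48 in WT and -0.87 in ERaKO. Mdh1 was the exception of the module. Its probe set with the highest mean, 1436834_x_at, averaged 13.47 ± 0.27 with placebo and 13.16 ± 0.16 with E2 in WT, 12.52 ± 1.27 with placebo and 12.73 ± 0.64 with E2 in ERaKO and 13.30 ± 0.25 with placebo and 13.17 ± 0.19 with E2 in ERbKO. In ERaKO that probe set measured 13.55, 11.10 and 12.91 with placebo and 13.24, 12.002 and 12.93 with E2, so that both arrays with replicate number 2 were low. Another Mdh1 probe set, 1448172_at, measured 11.96, 11.95 and 11.96 with placebo and 11.29, 11.06 and 11.45 with E2 in the same arrays, with no overlap. Over the 4 tested Mdh1 probe sets the ERaKO difference ranged from -0.69 to 0.21. It is therefore uncertain for Mdh1 which probe set follows the transcript.

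Fatty acids reach the matrix as carnitine esters. Slc25a20 codes for the carnitine-acylcarnitine translocase of the inner membrane. Slc25a20 means were 11.26 ± 0.56 with placebo and 10.59 ± 0.40 with E2 in WT, 11.79 ± 0.06 with placebo and 10.73 ± 0.83 with E2 in ERaKO and 10.76 ± 0.54 with placebo and 10.499 ± 0.45 with E2 in ERbKO. Its differences were -0.66 ± 0.31, -1.07 ± 0.40 and -0.26 ± 0.40, none of them called with the block (adjusted p = 0.13 and 0.0743 in WT and ERaKO). Cpt2 codes for the carnitine palmitoyltransferase that restores acyl-CoA inside. With placebo the Cpt2 values were 9.91, 10.58, 9.59, 11.72 and 9.80 in WT, 10.93, 10.76 and 10.91 in ERaKO and 10.62, 9.01 and 9.82 in ERbKO. With E2 the Cpt2 values were 9.27, 9.71, 8.83, 10.27 and 9.88 in WT, 9.92, 8.90 and 10.12 in ERaKO and 10.27, 8.77 and 9.69 in ERbKO. WT placebo replicate 4, at 11.72, stood clearly above every other WT array, and WT E2 replicate 4, at 10.27, was above 3 WT placebo arrays. Cpt2 differed by -0.73 ± 0.40 in WT, -1.22 ± 0.52 in ERaKO and -0.24 ± 0.52 in ERbKO, and fell in ERaKO with the block (adjusted p = 0.042). A second Cpt2 probe set differed by -0.15 in WT and -0.47 in ERaKO. Cpt1b, the muscle and brown fat isoform of the outer membrane step, is not analysed here. Cpt1a, the liver-type isoform, was in the other direction in WT, at 0.40 ± 0.50.

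The acyl-CoA dehydrogenases take the first step of each round and differ in the chain length they prefer. Acadvl codes for the very long-chain enzyme. Acadvl measured 11.10, 11.91, 10.83, 12.55 and 11.01 in WT, 12.18, 11.79 and 12.17 in ERaKO and 11.86, 10.53 and 11.04 in ERbKO with placebo. With E2 Acadvl measured 10.39, 11.01, 10.24, 11.09 and 10.84 in WT, 11.12, 9.87 and 11.51 in ERaKO and 11.53, 10.14 and 10.96 in ERbKO. E2 was lower in all 11 pairs, though the WT and ERbKO groups overlapped. The differences were -0.77 ± 0.37 in WT, -1.22 ± 0.47 in ERaKO, where it fell with the block (adjusted p = 0.0417), and -0.27 ± 0.47 in ERbKO. Acadl codes for the long-chain enzyme, which is a main one in the mouse. Acadl signal with placebo was 12.47, 13.29, 11.76, 13.34 and 12.26 in WT, 13.29, 13.09 and 13.03 in ERaKO and 13.05, 11.24 and 12.03 in ERbKO. Its signal with E2 was 11.61, 12.18, 10.88, 12.32 and 12.10 in WT, 12.53, 11.22 and 11.95 in ERaKO and 12.51, 10.68 and 11.75 in ERbKO. ERbKO E2 replicate 2 was the lowest array, at 10.68, and WT E2 replicate 3 the next, at 10.88. With the block Acadl fell by 0.81 in WT (adjusted p = 0.0408) and fell by 1.24 in ERaKO (0.0311). In ERbKO the difference was -0.46 ± 0.52, and it was 0.012 without ERbKO placebo replicate 1 and 0.023 without ERbKO E2 replicate 2.

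Acadm codes for the medium-chain enzyme, the one with the estrogen-related receptor half-site in the stretch above. Acadm measured 12.19, 12.80, 11.54, 12.93 and 12.06 in WT, 12.93, 12.43 and 12.51 in ERaKO and 12.58, 11.23 and 11.72 in ERbKO with placebo. With E2 Acadm measured 11.62, 12.004, 11.13, 11.94 and 11.89 in WT, 12.28, 10.79 and 12.14 in ERaKO and 12.25, 11.01 and 11.51 in ERbKO. The highest value was 12.93, reached in WT placebo replicate 4 and ERaKO placebo replicate 1, and the lowest was 10.79 in ERaKO E2 replicate 2. Its differences of -0.59 ± 0.33, -0.89 ± 0.43 and -0.25 ± 0.43 were not called with the block (adjusted p = 0.11 in WT and 0.0711 in ERaKO). Acads codes for the short-chain enzyme. Acads measured 7.86, 8.86, 7.82, 9.65 and 8.02 in WT, 9.19, 8.58 and 9.38 in ERaKO and 8.55, 7.30 and 7.73 in ERbKO with placebo. With E2 Acads measured 7.33, 7.79, 7.08, 7.91 and 7.07 in WT, 7.87, 7.11 and 8.18 in ERaKO and 8.28, 7.03 and 7.24 in ERbKO. E2 was lower in all 11 pairs, and the WT groups overlapped because WT E2 replicate 4, at 7.91, was above WT placebo replicates 1 and 3. With the block Acads fell by 1.003 in WT (adjusted p = 0.00882) and fell by 1.33 in ERaKO (0.0222), the smallest adjusted p of the members in both. The ERbKO difference was -0.35 ± 0.46. The WT difference was -0.70 without WT placebo replicate 4.

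The next 3 steps hydrate, oxidise and cleave the chain. Hadha and Hadhb code for the 2 subunits of the mitochondrial trifunctional protein, which does all 3 for long chains. Hadha measured 10.69, 11.18, 10.08, 12.32 and 10.30 in WT, 11.49, 11.24 and 11.58 in ERaKO and 11.26, 9.71 and 10.37 in ERbKO with placebo. With E2 Hadha measured 9.86, 10.499, 9.54, 10.55 and 10.02 in WT, 10.48, 9.60 and 10.63 in ERaKO and 11.12, 9.47 and 10.28 in ERbKO. WT placebo replicate 4, at 12.32, was the highest array, and the ERaKO groups separated. Hadha differed by -0.82 ± 0.39 in WT (blocked adjusted p = 0.0529), by -1.20 ± 0.51 in ERaKO, where it fell (0.0412), and by -0.16 ± 0.51 in ERbKO. Hadhb, by its highest probe set 1437172_x_at, averaged 13.77 ± 0.26 with placebo and 13.64 ± 0.12 with E2 in WT, 13.42 ± 0.75 with placebo and 13.11 ± 0.88 with E2 in ERaKO and 13.74 ± 0.22 with placebo and 13.55 ± 0.25 with E2 in ERbKO. Its ERaKO arrays measured 13.93, 12.56 and 13.78 with placebo and 13.84, 12.13 and 13.35 with E2, again with both replicate 2 arrays low. A second probe set, 1426522_at, measured 12.93, 12.51 and 12.68 with placebo and 12.07, 10.84 and 12.10 with E2 in ERaKO, where the groups did not overlap. The ERaKO difference of Hadhb ranged from -1.04 to -0.32 over 3 tested probe sets.

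**Figure D4:**
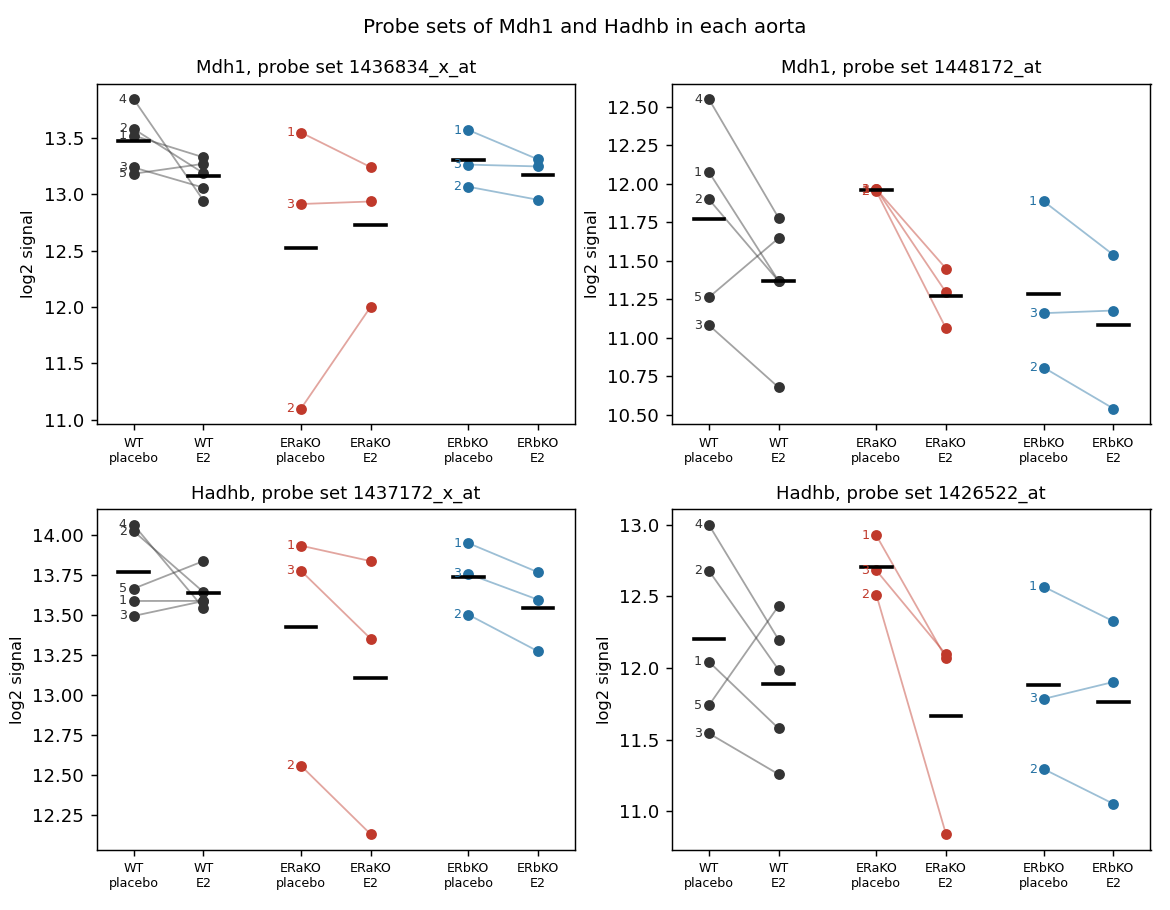
Log2 signal of 2 probe sets each of Mdh1 (top) and Hadhb (bottom) in every aorta; points are arrays, digits are replicate numbers, lines join arrays of equal number and black bars are group means. In the left panels the ERaKO replicate 2 arrays are low for both treatments (Mdh1 11.10 and 12.002, Hadhb 12.56 and 12.13); in the right panels the ERaKO placebo array of that number is level with the other 2 for Mdh1 (11.95) and the lowest of the 3 for Hadhb (12.51), above all ERaKO E2 arrays in both.

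Echs1 codes for the short-chain enoyl-CoA hydratase. Echs1 measured 10.42, 10.96, 10.27, 11.45 and 9.68 in WT, 11.40, 10.502 and 11.12 in ERaKO and 11.18, 9.98 and 10.59 in ERbKO with placebo. With E2 Echs1 measured 9.87, 10.29, 9.83, 9.999 and 9.47 in WT, 10.01, 8.98 and 10.11 in ERaKO and 10.84, 9.69 and 10.57 in ERbKO. WT replicate 5 was low with both pellets, at 9.68 and 9.47. Echs1 differed by -0.66 ± 0.33 in WT, and in ERaKO by -1.31 ± 0.42, where it fell with the block (adjusted p = 0.0261). In ERbKO it differed by -0.22 ± 0.42. Hadh codes for the short- and medium-chain 3-hydroxyacyl-CoA dehydrogenase. Hadh measured 13.02, 13.65, 12.83, 14.29 and 13.19 in WT, 13.77, 13.81 and 13.69 in ERaKO and 13.30, 12.49 and 13.09 in ERbKO with placebo. With E2 Hadh measured 12.55, 12.72, 12.43, 13.19 and 13.53 in WT, 13.09, 12.36 and 13.35 in ERaKO and 12.95, 12.26 and 12.83 in ERbKO. WT E2 replicate 5, at 13.53, was above 3 of the 5 WT placebo arrays, its own partner among them. The differences of Hadh, -0.51 ± 0.28, -0.82 ± 0.36 and -0.28 ± 0.36, were not called with the block (adjusted p = 0.22 and 0.14 in WT and ERaKO). Acaa2 and Acat1 code for thiolases, the first of beta-oxidation and the second of acetoacetyl-CoA. Acaa2 measured 11.498, 12.39, 11.37, 12.75 and 11.59 in WT, 12.80, 12.24 and 12.32 in ERaKO and 12.20, 10.84 and 11.37 in ERbKO with placebo. With E2 Acaa2 measured 10.95, 11.12, 10.72, 11.42 and 11.24 in WT, 11.69, 10.01 and 11.54 in ERaKO and 11.76, 10.29 and 11.35 in ERbKO. ERaKO E2 replicate 2, at 10.01, was the lowest array and ERaKO placebo replicate 1, at 12.80, the highest. Acaa2 differed by -0.83 ± 0.36 in WT and -0.34 ± 0.46 in ERbKO, and fell by 1.37 in ERaKO with the block (adjusted p = 0.0375). Acat1 means were 11.28 ± 0.61 with placebo and 10.83 ± 0.34 with E2 in WT, 11.64 ± 0.17 with placebo and 10.72 ± 0.36 with E2 in ERaKO and 10.99 ± 0.59 with placebo and 10.80 ± 0.51 with E2 in ERbKO, and it fell in ERaKO with the block (adjusted p = 0.042).

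Unsaturated fatty acids need auxiliary enzymes. Eci1, the enoyl-CoA isomerase, moves a double bond into reach of the hydratase. Eci1 measured 10.64, 11.25, 9.92, 11.81 and 10.63 in WT, 11.63, 10.99 and 11.18 in ERaKO and 11.07, 9.44 and 9.83 in ERbKO with placebo. With E2 Eci1 measured 9.84, 10.09, 9.12, 10.24 and 9.90 in WT, 10.59, 9.70 and 10.74 in ERaKO and 10.59, 8.88 and 9.80 in ERbKO. E2 was lower in all 11 pairs, and the WT groups overlapped through WT placebo replicate 3 alone. With the block Eci1 fell by 1.01 in WT (adjusted p = 0.0106) and fell by 0.92 in ERaKO (0.0495). By the probe sets used, it was 1 of 4 members, with Idh2, Mdh1 and Mdh2, whose ERaKO difference lay above the WT difference; for Mdh1 and Mdh2 other tested probe sets gave the opposite order. Its ERbKO difference was -0.36 ± 0.49. Decr1 codes for the mitochondrial 2,4-dienoyl-CoA reductase. Decr1 measured 10.62, 11.38, 10.56, 12.13 and 10.55 in WT, 11.63, 11.27 and 11.71 in ERaKO and 11.36, 10.15 and 10.53 in ERbKO with placebo. With E2 Decr1 measured 10.23, 10.62, 10.17, 10.86 and 10.46 in WT, 10.51, 9.59 and 10.54 in ERaKO and 10.91, 9.88 and 10.86 in ERbKO. The ERaKO arrays were 11.27 or higher with placebo and 10.54 or lower with E2. Decr1 had the smallest unadjusted p of any member in ERaKO (0.0039; limma adjusted p = 0.65) and fell by 1.33 there with the block (0.0264). It differed by -0.58 ± 0.31 in WT and -0.13 ± 0.40 in ERbKO.

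The electron transfer flavoproteins collect the electrons of the acyl-CoA dehydrogenases. Etfa and Etfb code for the 2 subunits, and Etfdh for the oxidoreductase that passes the electrons to ubiquinone. Etfa means were 12.49 ± 0.55 with placebo and 11.90 ± 0.27 with E2 in WT, 12.82 ± 0.25 with placebo and 11.79 ± 0.59 with E2 in ERaKO and 11.94 ± 0.70 with placebo and 11.78 ± 0.59 with E2 in ERbKO, and Etfa fell in ERaKO with the block (adjusted p = 0.0394). Etfb measured 10.03, 10.63, 9.80, 11.29 and 10.19 in WT, 10.97, 10.94 and 11.07 in ERaKO and 10.52, 9.49 and 9.92 in ERbKO with placebo. With E2 Etfb measured 9.53, 9.74, 9.30, 10.17 and 9.77 in WT, 9.96, 9.14 and 10.47 in ERaKO and 10.19, 9.09 and 9.89 in ERbKO. E2 was lower in all 11 pairs. Etfb differed by -0.69 ± 0.30 in WT, fell by 1.14 in ERaKO with the block (adjusted p = 0.0342) and differed by -0.25 ± 0.38 in ERbKO. Etfdh measured 10.67, 11.31, 9.82, 11.998 and 10.19 in WT, 11.42, 11.19 and 11.28 in ERaKO and 11.18, 9.37 and 10.09 in ERbKO with placebo. With E2 Etfdh measured 9.95, 10.15, 9.28, 10.64 and 10.59 in WT, 10.49, 9.32 and 10.46 in ERaKO and 10.42, 9.02 and 9.97 in ERbKO. WT placebo replicate 4, at 11.998, was the highest array and ERbKO E2 replicate 2, at 9.02, the lowest. Etfdh, which holds the nuclear respiratory factor 1 site printed above, differed by -0.67 ± 0.41, -1.21 ± 0.53 and -0.41 ± 0.53, and was not called with the block (adjusted p = 0.17 and 0.0717 in WT and ERaKO). Its ERbKO difference was 0.073 without ERbKO placebo replicate 1.

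The members varied together from mouse to mouse within groups. After each group's mean was subtracted, the median Pearson r over 22 arrays was 0.88 between pairs of TCA cycle members, 0.89 between pairs of beta-oxidation members and 0.88 between the 2 sets. The Spearman medians were 0.89, 0.90 and 0.89. Between a member and any other tested probe set the median Pearson r was -0.07. With the electron transport and ATP synthase genes listed below it was 0.84, and with the glycolysis genes 0.77. High r were therefore not particular to the members. Without WT placebo replicate 4 and ERbKO placebo replicate 1 the first 3 medians were 0.84, 0.86 and 0.83 over 20 arrays. All pairs share the same arrays and the same normalisation, so these r are a description. The members with the lowest median r to the others were Idh2 (0.39), Mdh1 (0.48) and Hadhb (0.61), and the highest were Dlat (0.94), Etfdh (0.93) and Eci1 (0.93).

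The same variation was seen in adipocyte markers. Over the 35 members the median r with Ucp1 was 0.89, with Adipoq, the adipocyte hormone adiponectin, 0.87, and with Cidea, a lipid droplet protein of brown fat, 0.86. With Myh11 it was -0.53, or -0.26 without the 2 arrays named above, and with Acta1 -0.02. Acadvl followed Ucp1 most closely, with an r of 0.96, and Idh2 least, with 0.36. Ucp1 measured 12.96, 13.51, 12.48, 14.07 and 12.84 in WT, 13.48, 13.44 and 13.71 in ERaKO and 13.37, 12.13 and 12.61 in ERbKO with placebo. With E2 it measured 12.04, 12.88, 11.55, 13.11 and 12.86 in WT, 12.88, 11.35 and 12.99 in ERaKO and 13.19, 11.74 and 12.78 in ERbKO. WT placebo replicate 4 was the highest array for Ucp1 and ERaKO E2 replicate 2 the lowest, as for many members.

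**Figure D5:**
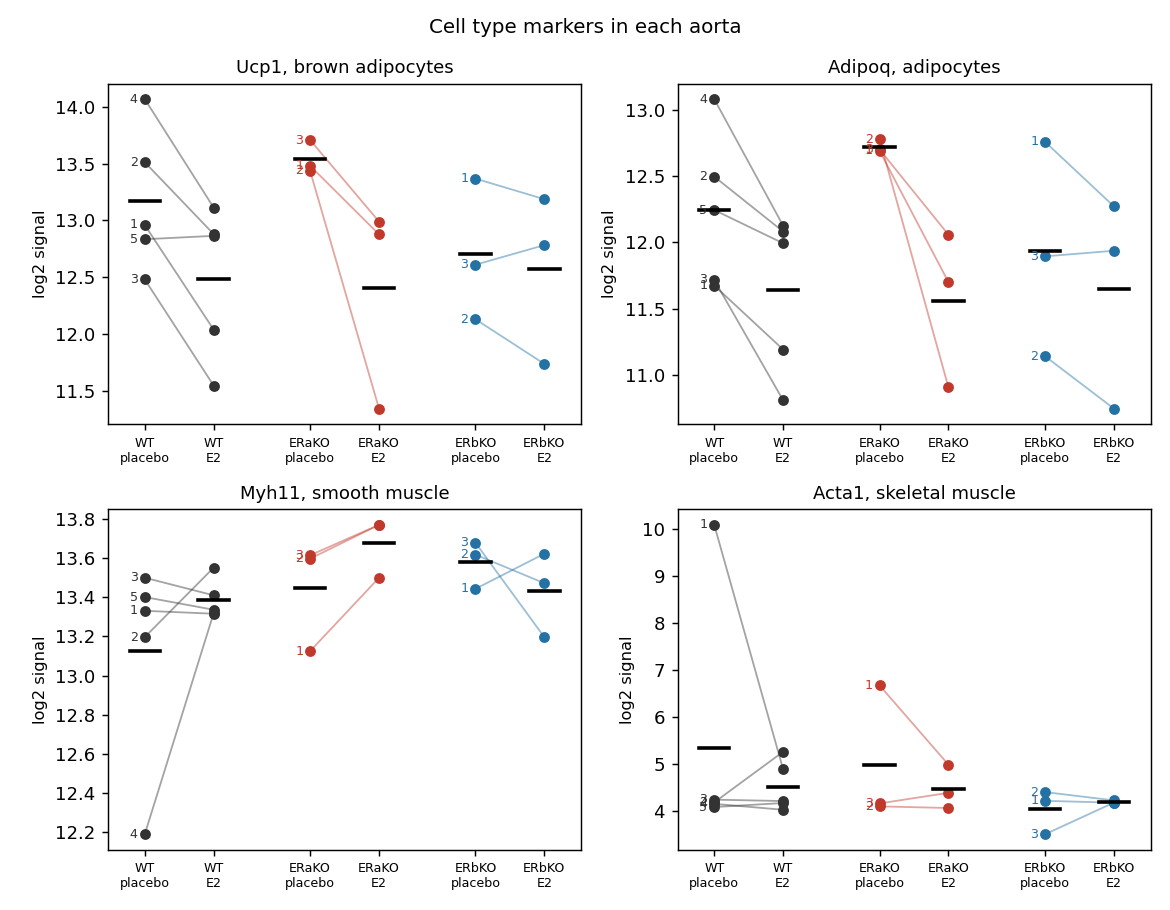
Log2 signal of Ucp1 and Adipoq (adipocytes), Myh11 (smooth muscle) and Acta1 (skeletal muscle) in every aorta; points are arrays, digits are replicate numbers, lines join arrays of equal number within a genotype and black bars are group means. Ucp1 runs from 11.35 to 14.07 and orders the arrays much as the module does, while Acta1 is high in WT placebo 1 (10.09) and Myh11 is low in WT placebo 4 (12.19).

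Of 18 listed brown adipocyte genes 15 were tested, and their median E2 difference was -0.84 in WT, -1.32 in ERaKO and -0.43 in ERbKO. Of 18 white and pan-adipocyte genes 14 were tested, with medians of -0.64, -1.15 and -0.27. None of either list was called without the block, where 0.0392%, 0% and 0.0049% of all tested probe sets were called lower in WT, ERaKO and ERbKO. With the block 3 brown adipocyte genes fell in WT and 3 in ERaKO, and 1 and 4 of the other list. That held for 0.725% of all tested probe sets in WT and 1.57% in ERaKO. The mean of the brown list per array spanned 9.20 to 10.96 in WT placebo, 8.30 to 9.41 in WT E2, 9.89 to 10.32 in ERaKO placebo and 8.23 to 9.36 in ERaKO E2 arrays. It spanned 8.40 to 9.90 in ERbKO placebo and 8.05 to 9.495 in ERbKO E2 arrays. Ucp1 itself differed by -0.68 ± 0.39 in WT, -1.14 ± 0.50 in ERaKO and -0.13 ± 0.50 in ERbKO, and was not called with the block (limma adjusted p = 0.13 and 0.064 in the first 2). Cidea fell with the block in WT by 1.11 (adjusted p = 0.028) and in ERaKO by 1.32 (0.0419). Adipoq fell with the block in ERaKO by 1.17 (adjusted p = 0.0359). Adipocyte markers thus moved with the module, and their part in the result was not tested.

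The marker lists of other cells are given by their medians. The median difference of 10 smooth muscle genes was 0.30 in WT, 0.37 in ERaKO and -0.07 in ERbKO. Of 13 skeletal muscle genes 3 were tested, with medians of -0.84, -0.40 and 0.12, and of 11 cardiac muscle genes 11 were, with medians of -0.32, -0.64 and -0.28. Without WT placebo replicate 1, the array highest for both muscle lists, the WT differences of the members ranged from -1.16 to -0.05. The skeletal and cardiac list means were 9.71 and 10.21 on that array. They were also raised in ERaKO placebo replicate 1 (6.30 and 8.53) and WT E2 replicate 1 (5.82 and 8.39). Leaving out that array therefore does not take muscle transcripts out of the comparisons, and their part was not tested. The 10 endothelial genes had medians of 0.24, -0.45 and -0.01, and the macrophage list 0.17, -0.01 and 0.52. Of 7 erythroid genes 2 were tested, and Slc4a1, the red cell anion exchanger, differed by 2.50 ± 0.60 in WT (limma adjusted p = 0.091, or 0.0231 with the block). The difference between the 3′ and 5′ control probe sets of Gapdh, a measure of RNA integrity, averaged 0.31 ± 0.30 (SD) in WT placebo and 0.48 ± 0.35 in WT E2. It averaged 0.20 ± 0.15 in ERaKO placebo and 0.45 ± 0.06 in ERaKO E2 arrays, and 0.14 ± 0.07 and 0.16 ± 0.10 in the ERbKO groups. The same difference for Actb, the cytoskeletal actin, was lower with E2: it averaged 1.56 ± 0.54 with placebo and 1.34 ± 0.22 with E2 in WT, 1.64 ± 0.11 and 1.43 ± 0.26 in ERaKO, and 1.23 ± 0.09 and 1.10 ± 0.16 in ERbKO. The part of RNA integrity in the result was not tested.

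Other genes of the same pathways, which are not members, are given by their counts. Of 20 other TCA cycle and pyruvate genes 18 were tested, and 15 were below 0 in WT, 14 in ERaKO and 15 in ERbKO. Below 0 were 47.8%, 48.3% and 55.7% of all tested probe sets. With the block 0, 6 and 0 of the listed genes fell, against 0.725%, 1.57% and 0.0196% of all tested probe sets. The 6 in ERaKO were Sdha, Sdhb, Pdhx, Pdk2, Mpc1 and Slc25a11. Sdha, Sdhb, Sdhc and Sdhd are also on the electron transport list below, so Sdha and Sdhb count in both. Mpc1, a subunit of the mitochondrial pyruvate carrier, fell by 1.03 (limma adjusted p = 0.0414). Of 30 other fatty acid oxidation genes 25 were tested, with medians of -0.35, -0.64 and -0.21. With the block 1 of them fell in WT, Acss1, a mitochondrial acetyl-CoA synthetase, by 1.59 (limma adjusted p = 0.0299), and 0 fell in the knockouts. The shares of all tested probe sets were again 0.725%, 1.57% and 0.0196%. Of 61 electron transport and ATP synthase genes 57 were tested, with medians of -0.50, -0.77 and -0.19. With the block 9, 27 and 0 of these fell, against 0.725%, 1.57% and 0.0196% of all tested probe sets. The study of these aortas singled out that gene class, so its direction is not independent evidence. Of 17 glycolysis genes 14 were tested, with medians of -0.46, -0.62 and -0.17. With the block 0 of the 14 fell in any genotype, against 0.725%, 1.57% and 0.0196% of all tested probe sets. For 14 genes a count of 0 is near these shares, so it does not set glycolysis apart.

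Among regulators of oxidative metabolism 18 of 20 were tested. Nrip1, a corepressor that restrains oxidative genes in adipocytes and muscle, was the 1 regulator that rose with the block, in WT by 0.69 (limma adjusted p = 0.0477), where 0.975% of all tested probe sets were called higher. Fabp3, a fatty acid binding protein also on the brown adipocyte list, fell by 1.498 (limma adjusted p = 0.0264). In ERaKO Lipe and Cd36, a lipase and a fatty acid transporter, fell by 1.75 (0.0315) and 1.12 (0.0492). Both are also on the white and pan-adipocyte list, so they count in both lists. Called lower with the block were 0.725% of all tested probe sets in WT and 1.57% in ERaKO. Nrip1 measured 8.58, 8.03, 8.71, 7.77 and 7.995 in WT, 8.08, 8.23 and 8.25 in ERaKO and 8.09, 8.45 and 8.21 in ERbKO with placebo. With E2 it measured 9.496, 9.15, 9.54, 8.32 and 8.02 in WT, 8.34, 8.24 and 8.12 in ERaKO and 8.80, 9.24 and 9.34 in ERbKO. Its WT groups overlapped, though the E2 array was the higher one in all 5 WT pairs. In ERaKO it differed by 0.05 ± 0.33, and in ERbKO it was 0.88 ± 0.33 higher without passing the adjusted test (0.17 with the block). Ppargc1a, the coactivator of mitochondrial biogenesis, differed by -1.13 ± 0.56 in WT, -0.68 ± 0.73 in ERaKO and -0.35 ± 0.73 in ERbKO. Esrra, the estrogen-related receptor alpha, differed by -0.47 ± 0.27, -0.19 ± 0.35 and -0.25 ± 0.35. Ppara, the fatty acid receptor that drives beta-oxidation genes, differed by -1.13 ± 0.69, -1.21 ± 0.89 and -0.18 ± 0.89, and WT placebo replicate 4 was far above the other WT placebo arrays for it, at 10.20. None of these 3 was called with or without the block.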

How the data were processed

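RNA from 22 aortas was measured on 1-colour Affymetrix arrays with 45101 probe sets. The deposited log2 values were made by the authors with GCRMA, per the submitters' processing notes; versions were not given. The authors' deposited limma table, with log2 fold changes and p-values for 11 comparisons, was used only as a check: a group-means fit of the deposited values returned its fold changes and p-values to within 4.98e-08. Probe sets over a log2 value of 4 on at least 3 arrays were kept (20410), and 64 control probe sets were left out. Gene names came from the platform annotation, in which 34958 probe sets have 1 symbol. Each gene is represented by its probe set with the highest mean over all arrays. limma 3.58.1 (R 4.3.3) fitted the 6 group means over all 22 arrays, with two-sided tests, Benjamini-Hochberg adjustment over all tested probe sets and a threshold of 0.05. The fit was tested on simulated data with 200 changed probe sets. The labels do not say what replicate numbers mark. In 11 of 11 placebo and E2 pairs of equal number the deviations from the group means correlated (r of 0.246 to 0.661), and in 10 the own number was the best match, so blocked results are printed where they change a call or a count. The members and all gene lists were chosen with earlier results of these data known. Values in every array are given for 10 members by role and for the 3 members of each set with the smallest unadjusted p in each E2 comparison. Dlst, and genes outside the module named because a blocked count was small, were added after their values were seen. Probe signals carry no read depth.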

Additional observations from a re-analysis of the deposited data

How the results depend on the processing

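The counts of members called stayed at 0 of 35 in the 9 comparisons under no filter, a filter at log2 over 6, quantile normalisation, median centring, a trended robust variance, only the groups compared, array weights, the mean of probe sets, and leaving out each of the 22 arrays. The replicate block raised the count to 5 in WT and 20 in ERaKO and changed no other count. For the knockouts against WT the block was the replicate number across genotypes, a match between arrays that was not checked. The settings that follow were added after seeing the data. With the block and 1 pair left out, the counts ranged from 2 to 20 in WT and from 0 to 28 in ERaKO; over all settings that leave out arrays, with and without the block, they ranged from 0 to 20 and from 0 to 28. In WT the blocked count was 3, 2, 3, 2 and 20 without WT pairs 1 to 5, 4, 7 and 4 without ERaKO pairs 1 to 3, and 3 without any ERbKO pair. In ERaKO it was 5, 3, 3, 28 and 26 without WT pairs 1 to 5, 0 without any ERaKO pair, and 1, 2 and 3 without ERbKO pairs 1 to 3. The block with a trended robust variance gave 8 in WT and 21 in ERaKO, with median centring 3 and 0, and with the mean of probe sets 11 and 25. Medians kept their sign in WT and ERaKO under every setting run. Over the single arrays left out, the ERbKO medians ranged from -0.61 to 0.05 for the TCA cycle and from -0.57 to 0.08 for beta-oxidation. With the block and 1 pair left out, the ERbKO medians ranged from -0.28 to -0.20 and from -0.32 to -0.21. The ERaKO difference of Mdh1 was -0.23 as the mean of its probe sets, with and without the block, -0.14 with the block and without ERaKO pair 2, and -0.50 to 0.72 over single arrays left out. The same ranges were -0.15 to 0.030 for Suclg2 in WT, -0.75 to 0.17 for Hadhb in ERaKO, and -0.89 to 0.023 for Acadl and -0.83 to 0.073 for Etfdh in ERbKO. The cause was not tested. Group sizes of 3 limit the knockout comparisons.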
